A study of Mus musculus with 6 samples.

Results

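The genes described here are 36 genes of macroautophagy, chosen by name: the kinase complex that starts the process, the lipid kinase complex, the lipid transfer and PI3P-binding proteins, the conjugation enzymes, the ATG4 proteases, the ATG8 proteins and the cargo receptors. For each gene the single-gene probe set with the highest mean over 6 arrays was read. Of the 36, 35 were measured and tested, among 12649 genes tested in all. Optn, a cargo receptor, had no probe set that the annotation gives to it alone and was not analysed here. The arrays carried RNA of primary peritoneal macrophages from C57BL/6 mice aged 8 weeks, taken 72 h after 2 ml of thioglycolate broth, an irritant that recruits monocytes to the cavity. Cells attached for 4 h, stood for 24 h and then received lipopolysaccharide (LPS), a bacterial cell wall component, at 100 ng/ml for 6 h. A first group of 3 arrays bears the label LysMCre/Cre, for mice with the Cre recombinase in both copies of the lysozyme gene Lyz2, and is called the controls below. The second group of 3 bears the label KLF2∆/∆, for mice with LysMCre/Cre and KLF2 FL/FL, that is floxed Klf2. Both groups therefore share Cre and LPS, and no untreated cells were analysed here. LysM drives Cre in myeloid cells, neutrophils included, so other adherent cells keep Klf2, and the labels' protocols describe no sorting. GEO's design text names 3 mice of each kind and mentions pairs of mice. No label ties an array to a mouse or equal replicate numbers to a pair. The p-values thus cover array-to-array spread, which may be technical.

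Macroautophagy encloses cytoplasm in a membrane sac, the autophagosome, and delivers it to the lysosome for breakdown. The ULK1 kinase complex starts it when nutrient signalling through mTORC1 falls, and the class III PI3-kinase complex then marks the growing membrane with PI3P. A ubiquitin-like system couples ATG8 proteins (LC3 and GABARAP) to the membrane, where cargo receptors bind them and bring in ubiquitinated proteins, organelles or bacteria. In macrophages the pathway is known for the clearance of intracellular bacteria and for restraint of inflammasome activation. Transcript levels do not measure autophagic flux, and no protein or flux was measured here.

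Klf2, the gene named in the label, encodes a zinc finger transcription factor. Its log2 intensities were 8.88, 8.97 and 8.94 in the controls and 9.10, 9.25 and 9.21 in the KLF2∆/∆ arrays. The signal was thus higher where the label says the gene is deleted, by 0.26 ± 0.0643 (SE; limma adjusted p = 0.00398; exact two-sided permutation p = 0.1, the smallest that 3 arrays against 3 allow). It is not known here whether the probes lie in the deleted part, so this reading may not check the label. Every direction below is one between arrays labelled KLF2∆/∆ and arrays labelled LysMCre/Cre. The macrophage markers Cd68, Adgre1 and Csf1r had a high signal in both groups. Their mean log2 intensities (controls, then KLF2∆/∆) were 13.56 and 13.61, 12.57 and 12.81, and 11.93 and 12.09. Of 14 general macrophage markers tested, 7 were higher and 2 lower in the KLF2∆/∆ arrays, and 1 more lay below the intensity filter. The lower ones were Itgam (-0.21, limma adjusted p = 0.000734) and Cd14 (-0.26, adjusted p = 0.00019). Median log2 intensity per array lay between 7.85 and 7.90, and the first principal component, with 72.6% of the variance, parted the groups.

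Differences in the autophagy genes were small and went both ways. Of the 35 tested, 7 were higher in the KLF2∆/∆ arrays (Atg4c, Tax1bp1, Atg13, Atg16l1, Uvrag, Atg3 and Atg101), 3 were lower (Wipi1, Gabarapl1 and Sqstm1) and 25 did not pass an adjusted p of 0.05. These 10 make up 28.6% of the members, against 29.8% of all tested genes, so the share is near the background. By direction, 20% of the members were higher, against 13.6% of all genes, and 8.57% lower, against 16.2%. With the arrays centred on their medians the split was 8 higher and 1 lower, and the count of lower genes was 1 without control replicate 1, 2 or 3. Values of the groups did not overlap for 14 members (40%), against 40.8% of all genes. The median change was 0.04 on the log2 scale over the 35 members and 0.0019 over all genes tested, and the median size of a change, sign aside, was 0.10 for both. No member changed by 2-fold or more. Such changes were rare, with 73 past the threshold among all 12649 tested genes. Their absence among 35 members thus does not set the members apart. The largest change, in Atg4c, was 1.36-fold. In bulk RNA, a change in the share of a cell type and a change in RNA per cell cannot be told apart.

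**Figure D1:**
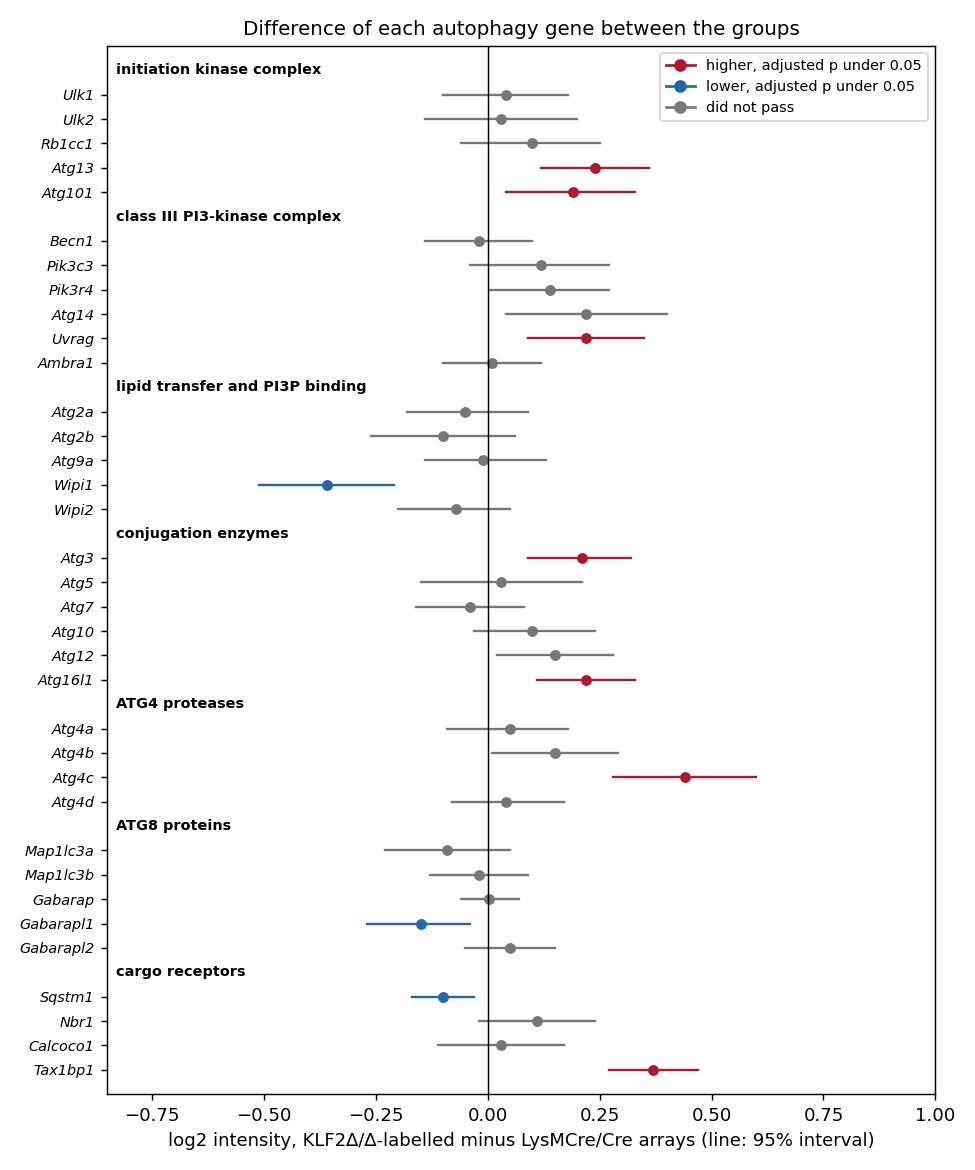
Change of each of the 35 tested autophagy genes, grouped by role: the x axis is the log2 intensity of the KLF2∆/∆-labelled arrays minus that of the LysMCre/Cre arrays (n = 3 each), points are the fitted change and lines its 95% interval from limma. Atg4c and Tax1bp1 lie farthest to the right (0.44 and 0.37), Wipi1 farthest to the left (-0.36), and 25 genes in grey did not pass.

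The roles below hold 4 to 6 tested genes each. Counts of 1 or 2 that passed do not set a role apart from the 29.8% of all tested genes. In the initiation complex, Atg13 and Atg101 passed with a higher signal in the KLF2∆/∆ arrays, 2 of 5 genes. Atg13, the adaptor that joins the kinase to its partners, read 9.92, 9.97 and 9.89 in the controls and 10.19, 10.25 and 10.06 in the KLF2∆/∆ arrays. All 3 values of the second group lay above the first, a rise of 0.24 ± 0.0591 (SE, 1.18-fold, limma adjusted p = 0.00392). Atg101, which binds and stabilises Atg13, read 8.95, 8.88 and 8.84 against 8.95, 9.16 and 9.11. Here both groups reached 8.95 to 2 decimals, but before rounding they did not overlap. The rise was 0.19 ± 0.0677 (adjusted p = 0.0444). Its call was lost without control replicates 1, 2 and 3 (adjusted p = 0.0535, 0.119 and 0.169) and without KLF2∆/∆ replicates 2 and 3 (0.135 and 0.0961). It was also lost with array weights (0.0778), without the trend (0.053) and without the filter (0.0667). The kinases Ulk1 and Ulk2 and the large scaffold Rb1cc1 (FIP200) did not pass, with changes of 0.04, 0.03 and 0.10 and 95% intervals of -0.10 to 0.18, -0.14 to 0.20 and -0.06 to 0.25. For Ulk2, the arrays ranged from 8.48 to 8.68 in one group and from 8.46 to 8.77 in the other, so its spread within the KLF2∆/∆ group was larger than its change.

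Of the class III PI3-kinase complex, 1 of 6 genes passed (16.7%, against 29.8% of all tested genes). Uvrag, a Beclin 1 partner of the form of the complex that works on endosomes and in autophagosome maturation, read 10.04, 9.88 and 9.90 against 10.15, 10.24 and 10.07. Its groups did not overlap, and it rose by 0.22 ± 0.0612 (1.16-fold, adjusted p = 0.00984), a call lost without control replicates 2 and 3 (adjusted p = 0.0621 and 0.0552). Atg14, the subunit that directs the kinase to nascent autophagosomes, had an equally large change of 0.22 ± 0.0846 (7.38, 7.56 and 7.29 against 7.59, 7.75 and 7.55) but more spread, and did not pass (adjusted p = 0.0563). Its control mean of 7.41 lay below the intensity filter of 7.49 and its KLF2∆/∆ mean of 7.63 above it, so Atg14 entered the test through its brighter group. Without control replicate 2 or KLF2∆/∆ replicate 3, it passed (adjusted p = 0.0228 and 0.0296), as it did with arrays centred on their medians (0.0498). The catalytic subunit Pik3c3 (VPS34) and its regulatory partner Pik3r4 (VPS15) had differences of 0.12 and 0.14 (adjusted p = 0.269 and 0.117), with no overlap between groups for either. For Pik3c3 the gap was narrow, with 8.96, 8.69 and 8.96 against 8.98, 9.01 and 8.97. Its change was as low as 0.03 among the alternative settings. Pik3r4 passed after quantile normalization was applied again (0.18, adjusted p = 0.0264). The core subunit Becn1 read 9.86, 9.84 and 9.78 against 9.79, 9.88 and 9.76, and its regulator Ambra1 10.40, 10.43 and 10.37 against 10.36, 10.49 and 10.38. Both had overlapping groups and changes of -0.02 and 0.01 (95% intervals of -0.14 to 0.10 and -0.10 to 0.12), whose sign turned for Becn1 after quantile normalization (0.01) and for Ambra1 with array weights (-0.0048).

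Among the 5 membrane genes, Wipi1 passed, with a lower signal (20% lower, against 16.2% of all tested genes). This PI3P-binding protein, a WD-repeat propeller recruited to forming autophagosomes, read 8.31, 8.21 and 8.14 in the controls and 7.86, 7.92 and 7.80 in the KLF2∆/∆ arrays. The highest of the latter lay below the lowest of the former, and Wipi1 fell by 0.36 on the log2 scale (SE 0.0721, 1.28-fold, adjusted p = 0.000631). Its paralogue Wipi2, which recruits Atg16l1 to the membrane, read 9.53, 9.51 and 9.5 against 9.43, 9.5 and 9.39 and did not pass (-0.07, adjusted p = 0.399), although its groups only came near each other at 9.5. The difference between the changes of Wipi1 and Wipi2 was not tested. The lipid transfer proteins Atg2a and Atg2b and the lipid scramblase Atg9a had differences of -0.05, -0.10 and -0.01 (adjusted p = 0.652, 0.386 and 0.951), and the signs of Atg2a and Atg9a turned after quantile normalization (0.01 and 0.03).

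The conjugation enzymes that passed were Atg3 and Atg16l1. Atg3, the E2-like enzyme that transfers ATG8 proteins to lipid, read 10.46, 10.45 and 10.45 in the controls and 10.71, 10.73 and 10.54 in the KLF2∆/∆ arrays. It rose by 0.21 ± 0.056 (1.15-fold, adjusted p = 0.00796), with KLF2∆/∆ replicate 3 nearest to the other group. Atg16l1, which holds the Atg12-Atg5 conjugate at the membrane and is a Crohn's disease risk gene in humans, read 9.82, 9.83 and 9.76 against 10, 10.05 and 10.02 (to 2 decimals). Here the KLF2∆/∆ values lay close together, and the rise was 0.22 ± 0.0546 (1.16-fold, adjusted p = 0.00394). The ubiquitin-like Atg12 read 9.23, 9.25 and 9.28 against 9.40, 9.34 and 9.46, without overlap, yet did not pass (0.15 ± 0.0602, adjusted p = 0.0695). It passed without KLF2∆/∆ replicate 2 (adjusted p = 0.0252), with array weights (0.0495) and after quantile normalization (0.0193). Atg5 (the partner of Atg12), Atg7 (the E1-like enzyme) and Atg10 (the E2-like enzyme for Atg12) did not pass, at 0.03, -0.04 and 0.10 (adjusted p = 0.866, 0.681 and 0.278). Atg5 was scattered, from 8.55 to 8.82 in the controls and from 8.51 to 8.83 in the KLF2∆/∆ arrays, where its SD of 0.183 was the largest among the members.

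Of the ATG4 cysteine proteases, which trim ATG8 proteins before conjugation and release them afterwards, Atg4c changed most. Its log2 intensities were 8.31, 8.41 and 8.49 in the controls and 8.77, 9.02 and 8.74 in the KLF2∆/∆ arrays. All KLF2∆/∆ values lay above all controls, and the rise was 0.44 ± 0.0778 (1.36-fold, adjusted p = 0.000176). Atg4b, described as the most active family member towards LC3, read 8.84, 8.79 and 8.73 against 8.87, 9.03 and 8.90, with no overlap, and did not pass (0.15 ± 0.066, adjusted p = 0.0970; 0.20 with adjusted p = 0.0148 after quantile normalization). Atg4a and Atg4d had differences of 0.05 and 0.04 (95% intervals of -0.09 to 0.18 and -0.08 to 0.17). Neither passed (adjusted p = 0.666 and 0.657). The Atg4a probe set used may read a copy of the gene, as described below.

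Of the 5 ATG8 genes, which encode the membrane anchors of the pathway, 1 passed (20%, against 29.8% of all tested genes). The median change of the 5 was -0.02. Gabarap read 13.19, 13.19 and 13.21 against 13.23, 13.19 and 13.17, a change of 0.0023 with a 95% interval of -0.06 to 0.07. Map1lc3b (LC3B), the usual marker of autophagosomes, read 10.80, 10.81 and 10.75 against 10.68, 10.82 and 10.80 (-0.02, interval of -0.13 to 0.09). Neither differed between groups beyond its spread. Gabarapl1 passed with a lower signal, at 10.52, 10.47 and 10.54 against 10.30, 10.47 and 10.29. Its groups overlapped, since KLF2∆/∆ replicate 2 read like a control array, and it fell by 0.15 on the log2 scale (SE 0.0567, adjusted p = 0.0469). The call was lost without control replicates 1, 2 and 3 (adjusted p = 0.134, 0.0700 and 0.171), without KLF2∆/∆ replicates 1 and 3 (0.149 and 0.131), with arrays centred on their medians (0.0988), without the trend (0.0912), without the filter (0.0675) and with probe sets of several genes let in (0.0501). Map1lc3a and Gabarapl2 did not pass, at -0.09 and 0.05 (adjusted p = 0.350 and 0.537). The Gabarapl2 probe set used may read a copy of the gene, as described below.

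Of 4 cargo receptors tested, 1 was higher and 1 lower (25% each, against 13.6% and 16.2% of all tested genes). Tax1bp1, which binds ubiquitin and LC3 and also works with the NF-kB inhibitor A20, read 11.14, 11.22 and 11.23 in the controls and 11.63, 11.60 and 11.47 in the KLF2∆/∆ arrays. Every value of the second group exceeded the first, and the rise of 0.37 ± 0.049 (1.29-fold) had the lowest adjusted p of the members, 6.41e-06. Sqstm1 (p62), the ubiquitin receptor that is itself degraded by autophagy and induced by Nrf2, read 12.89, 12.89 and 12.88 against 12.78, 12.79 and 12.79. With so little spread the groups stayed apart, but the fall of 0.10 on the log2 scale (SE 0.0323, 1.07-fold, adjusted p = 0.0208) was the smallest among the 10 that passed. Its call was lost without control replicates 1, 2 and 3 (adjusted p = 0.0833, 0.0777 and 0.0572), with arrays centred on their medians (0.0776) and without the intensity trend (0.169). Nbr1 read 9.16, 9.31 and 9.24 against 9.27, 9.40 and 9.37, and Calcoco1, a relative of the xenophagy receptor NDP52, 9.68, 9.51 and 9.64 against 9.61, 9.55 and 9.75. Neither receptor passed (0.11 and 0.03, adjusted p = 0.220 and 0.785).

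**Figure D2:**
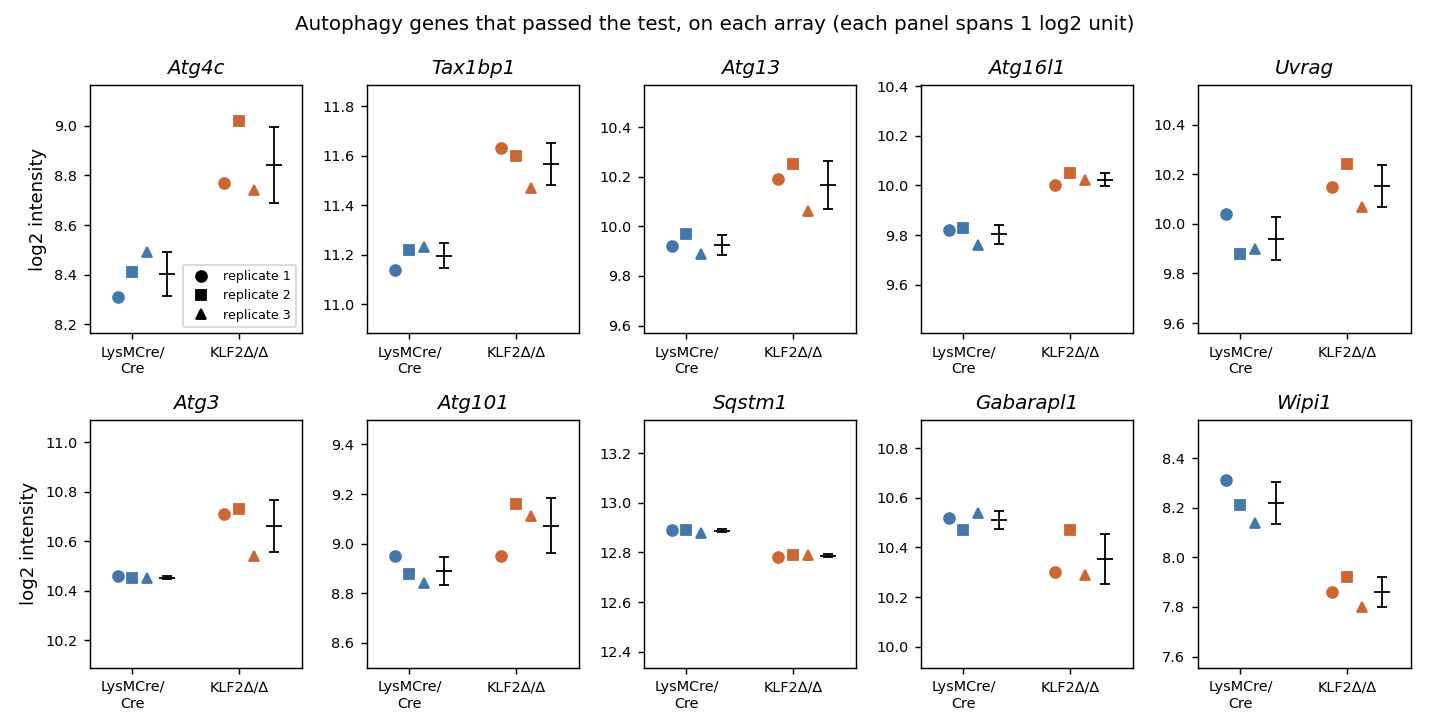
Log2 intensity of the 10 autophagy genes that passed the test, 1 panel a gene and each panel spanning 1 log2 unit; symbols are the 3 arrays of each group, and bars give the mean and SD (n = 3). The groups are apart in all panels except Gabarapl1, where KLF2∆/∆ replicate 2 lies at 10.47 among the LysMCre/Cre arrays, and Atg101, where both groups reach 8.95 to 2 decimals. Before rounding, the Atg101 groups did not overlap.

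Calls for Atg13, Atg16l1, Atg3, Atg4c and Tax1bp1 held under all 18 alternative settings, and that for Wipi1 under the 17 in which it was tested. Of the 25 genes that did not pass, 17 had a positive and 8 a negative change. For 18 of these 25 the 95% interval lay within 0.25 log2 units of no change. The intervals of the others reached to -0.26 and 0.40.

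Promoter letters are shown for 5 of the genes that passed, from RefSeq (build GRCm38.p6): the largest rise and fall by change (Atg4c and Wipi1), and, chosen after their values were seen, Tax1bp1 for its clear rise, Atg3 as the member past the threshold with E-boxes and Gabarapl1 for its mix of boxes. Each run is the 250 bases before the annotated start along the gene's strand, and capitals mark 3 motifs on either strand: the KLF box (CACCC or GGGTG), the E-box bound by TFEB and MITF (CACGTG) and the GC box (GGGCGG or CCGCCC). RefSeq gives starts at several sites for Atg4c and Tax1bp1, and 1 window of each is printed.
Atg4c, chr4:99193684-99193933, plus strand: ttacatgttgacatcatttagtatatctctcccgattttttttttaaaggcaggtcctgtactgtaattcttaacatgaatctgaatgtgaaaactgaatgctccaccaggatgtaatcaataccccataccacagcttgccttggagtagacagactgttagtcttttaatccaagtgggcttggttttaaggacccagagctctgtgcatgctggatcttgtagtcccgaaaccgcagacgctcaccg
Tax1bp1, chr6:52713915-52714164, plus strand: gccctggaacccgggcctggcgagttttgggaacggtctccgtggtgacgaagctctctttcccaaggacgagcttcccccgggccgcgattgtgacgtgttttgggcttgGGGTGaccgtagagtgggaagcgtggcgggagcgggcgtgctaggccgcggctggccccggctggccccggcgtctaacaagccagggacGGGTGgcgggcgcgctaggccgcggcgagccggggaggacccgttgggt
Atg3, chr16:45158579-45158828, plus strand: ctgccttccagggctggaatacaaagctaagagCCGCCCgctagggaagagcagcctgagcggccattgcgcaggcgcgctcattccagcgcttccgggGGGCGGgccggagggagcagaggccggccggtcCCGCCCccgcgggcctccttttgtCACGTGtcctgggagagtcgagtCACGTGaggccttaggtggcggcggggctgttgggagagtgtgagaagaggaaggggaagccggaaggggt
Gabarapl1, chr6:129532942-129533191, plus strand: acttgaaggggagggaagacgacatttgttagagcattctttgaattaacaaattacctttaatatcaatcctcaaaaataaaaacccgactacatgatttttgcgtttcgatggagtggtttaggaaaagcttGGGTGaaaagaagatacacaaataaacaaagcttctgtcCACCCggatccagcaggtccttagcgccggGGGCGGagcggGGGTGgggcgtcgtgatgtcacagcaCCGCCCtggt
Wipi1, chr11:109611390-109611639, minus strand: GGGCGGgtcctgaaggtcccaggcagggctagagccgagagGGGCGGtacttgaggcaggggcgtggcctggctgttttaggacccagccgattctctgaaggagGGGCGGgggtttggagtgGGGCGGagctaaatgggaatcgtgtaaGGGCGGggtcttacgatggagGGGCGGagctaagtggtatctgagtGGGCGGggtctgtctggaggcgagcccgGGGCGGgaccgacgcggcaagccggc
None of the 3 motifs is in the printed Atg4c window, nor in its other window, which is not printed. The printed Tax1bp1 window has 2 KLF boxes and the other one holds none of the motifs. Of the rest, the Atg3 window has 2 E-boxes and 3 GC boxes, the Gabarapl1 window 3 KLF boxes and 2 GC boxes, and the Wipi1 window 8 GC boxes. The promoter table held 34 windows for 30 of the 36 members. A KLF box was in 19 of the 34 windows (55.9%), against 58.7% of the 12638 windows of tested genes and 52.0% of all 32851 windows. The E-box was in 3 (8.82%), against 8.16% and 6.02%, and the GC box in 19 (55.9%), against 55.3% and 32.7%. Among the 11 windows of members that passed, 5 held a KLF box, 1 an E-box and 5 a GC box. No window of a member had bases shared by a KLF box and a GC box except that of Wipi2, with 1. A match of letters is a description and not evidence of binding, and the shares of the members were close to those of the tested genes.

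The arrays of the KLF2∆/∆ group differed among themselves in these genes. KLF2∆/∆ replicate 2 was the highest of its group for 26 of the 35 members and the lowest for 3, while it was the highest for 49.0% of all tested genes and the lowest for 23.7%. Its median deviation from the group mean was 0.07 over the members and 0.03 over all genes. The SD between arrays had a median over the members of 0.0457 in the LysMCre/Cre group and 0.0825 in the KLF2∆/∆ group, beside 0.0529 and 0.0798 over all genes. Without KLF2∆/∆ replicate 2, 7 members were higher and 3 lower, so the counts did not change, although Atg101 left the list and Atg12 entered it.

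**Figure D3:**
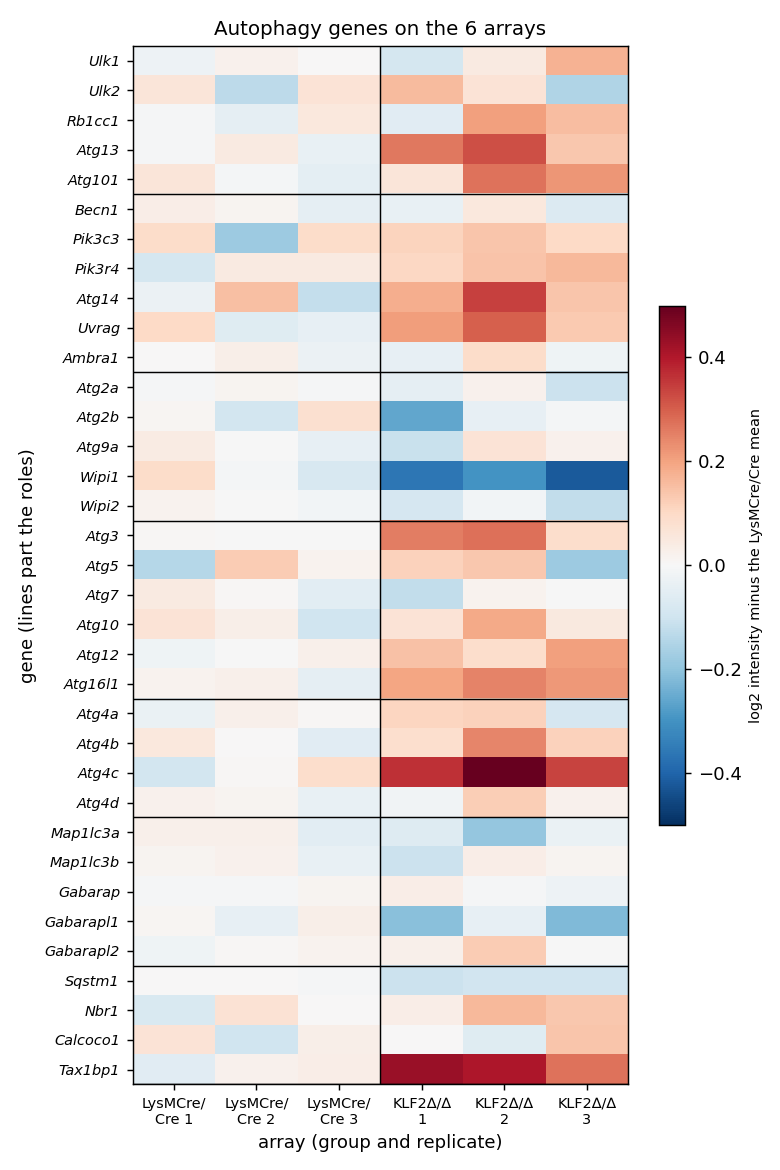
Each of the 35 autophagy genes (rows, ordered by role, lines between roles) on each of the 6 arrays (columns), coloured by log2 intensity minus the mean of the LysMCre/Cre arrays. KLF2∆/∆ replicate 2 is the reddest of its group in most rows (highest for 26 of 35), and the Wipi1 row is blue on all KLF2∆/∆ arrays.

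Further genes around the pathway were read from 5 lists, chosen by function but with earlier results of these data known. Their shares beside those of all genes are thus descriptions. Of 14 tested genes of autophagosome-lysosome fusion, 7 were higher and none lower (50.0% higher, against 13.6% of all genes), with a median change of 0.14. At an unadjusted p under 0.05, limma gave 10 higher and 0 lower, beside 17.9% and 20.3% of all tested genes. For the lists that follow, such counts were 6 and 1 of 10 transcription factors and 3 and 3 of 23 nutrient sensing genes. They were 8 and 2 of 19 other regulators, and 2 and 1 of 15 mitophagy and ER-phagy genes. Plekhm1, an adaptor that links Rab7 and the HOPS tether to LC3, read 10.10, 10.17 and 10.18 against 10.59, 10.73 and 10.70 and rose by 0.52 ± 0.0543 (1.43-fold, adjusted p = 3.02e-07). The SNARE protein Snap29 rose by 0.32 ± 0.0504 (adjusted p = 5.5e-05), the HOPS subunit Vps41 by 0.21 (adjusted p = 0.00237) and the late endosomal GTPase Rab7 by 0.18 (adjusted p = 0.00181). Each of these 4 genes had no overlap between groups. The count was 4 at a threshold of 0.01 and between 5 and 10 when single arrays were left out.

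Of 10 tested transcription factors that act on autophagy genes, 4 were higher and 1 lower (50.0% passed, against 29.8% of all genes), with a median change of 0.16. The bHLH-zipper factors Mitf, Tfeb and Tfe3, which drive lysosome and autophagy genes from CACGTG-type sites, rose by 0.27 ± 0.0437, 0.23 ± 0.0703 and 0.20 ± 0.0487 (adjusted p = 8.15e-05, 0.0186 and 0.00338). Their relative Tfec, a myeloid member of the family, read 11.06, 11.21 and 11.09 against 10.73, 10.86 and 10.77 and fell by 0.33 on the log2 scale (adjusted p = 5.39e-05). The family thus moved in both directions. Nfe2l2 (Nrf2), a known inducer of Sqstm1, rose by 0.22 ± 0.036 (adjusted p = 6.96e-05), while Sqstm1 itself was lower. Mitf lost its call with its probe sets averaged (0.13, adjusted p = 0.147), and Tfeb without control replicates 2 and 3 and KLF2∆/∆ replicate 2 (0.0826, 0.0634 and 0.0816).

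Among 23 tested genes of mTORC1, AMPK and nutrient sensing, 3 were higher and 3 lower, 26.1% against 29.8% of all genes, and after quantile normalization 3 and 1. Fnip2, a folliculin partner that signals amino acid state to mTORC1, read 10.89, 10.92 and 10.88 against 11.40, 11.46 and 11.44 and rose by 0.54 ± 0.0446 (1.45-fold, adjusted p = 1.07e-08). Its paralogue Fnip1 rose by 0.18 and the Rag GTPase gene Rragc by 0.17 (adjusted p = 0.00387 and 0.014). Lower were the AMPK subunit genes Prkag1 and Prkab2 (-0.20 and -0.19, adjusted p = 0.0106 and 0.0384) and the Rag GTPase gene Rraga (-0.20, adjusted p = 0.0256). The lower genes numbered 1, 1 and 0 without control replicates 1 and 2 and KLF2∆/∆ replicate 1. Rragc lost its call without control replicates 1 and 2 (0.0504 and 0.0730), Prkag1 without KLF2∆/∆ replicate 1 (0.0612), Rraga without control replicates 1, 2 and 3 and KLF2∆/∆ replicate 1 (0.0807, 0.0687, 0.0689 and 0.131), and Prkab2 without control replicates 1 and 2 and KLF2∆/∆ replicates 1 and 3 (0.147, 0.139, 0.127 and 0.0518). After quantile normalization Rraga and Prkab2 did not pass (0.0575 and 0.0859), nor did Prkab2 with arrays centred (0.0553) or without the filter (0.0582).

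Of 19 other regulators of autophagy, 7 were higher and 2 lower (36.8% higher, against 13.6% of all genes). Rubcnl (Pacer), a positive regulator of autophagosome maturation, rose by 0.42 ± 0.0729 (adjusted p = 0.000141), the stress-induced Trp53inp1 by 0.36 ± 0.0714 (0.000559), the Beclin 1 interactor Sh3glb1 (Bif-1) by 0.17 (0.00247) and the interferon-induced GTPase Irgm1 by 0.15 (0.0173). The lower genes were Dapk1, a kinase that phosphorylates Beclin 1 (-0.44 ± 0.0601, adjusted p = 1.11e-05), and Trp53inp2 (-0.30 ± 0.0551, adjusted p = 0.00025), so the paralogues Trp53inp1 and Trp53inp2 had opposite signs. Irgm1 lost its call without control replicate 2 and KLF2∆/∆ replicates 1 and 2 (0.0813, 0.0900 and 0.100) and without the intensity trend (0.0981). The count of higher genes was 4, 3, 4 and 3 without control replicates 1 and 2 and KLF2∆/∆ replicates 1 and 2. Of 15 receptors and partners of mitophagy and ER-phagy, 2 were higher and 1 lower, 20% in all against 29.8% of all genes, and with arrays centred on their medians 2 and 0. The kinase Tbk1, which phosphorylates cargo receptors, rose by 0.25 ± 0.0556 (adjusted p = 0.00147) and the mitophagy receptor Bnip3l (Nix) by 0.14 (0.00877), while the mitochondrial protein Phb2 was lower (-0.13, 0.0425). Bnip3l lost its call without control replicate 2 (0.0797) and without the trend (0.0961), and Phb2 without control replicates 1, 2 and 3 and KLF2∆/∆ replicates 1 and 3 (0.103, 0.112, 0.144, 0.150 and 0.0609), without the trend (0.107), without the filter (0.0606) and with arrays centred (0.101).

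**Figure D4:**
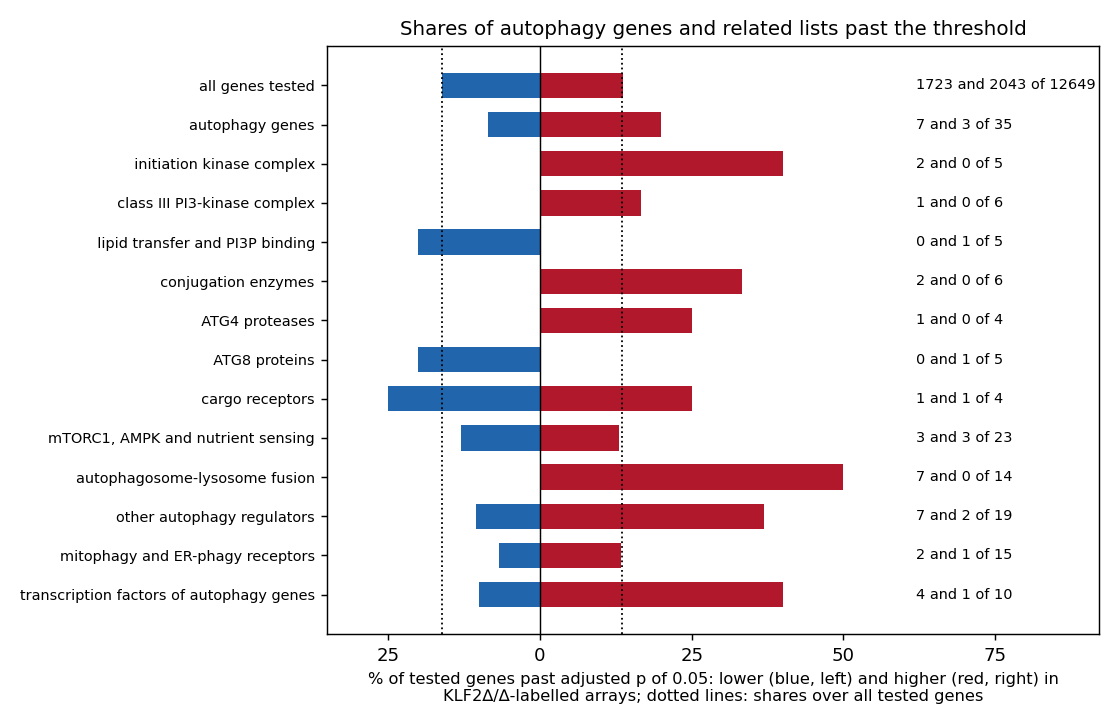
Share of tested genes past an adjusted p of 0.05 in each role of the autophagy genes and in 5 related lists: bars to the right are higher and bars to the left lower in the KLF2∆/∆-labelled arrays, dotted lines mark the shares over all tested genes (13.6% and 16.2%), and the counts stand at the right as higher and lower of tested. For the autophagy genes as a whole (7 and 3 of 35), the bar to the right passes its line and the bar to the left ends short of it, while the bars of the roles rest on 4 to 6 genes each.

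Cell type markers moved with the groups in the same arrays, and the counts below stand beside 13.6% of all tested genes that were higher and 16.2% that were lower. Fibroblast and mesothelial markers were lower in 14 of 17 tested genes and higher in none, and their summed intensity over 18 genes was 23732 to 23917 in the controls and 13602 to 14987 in the KLF2∆/∆ arrays. Resident peritoneal macrophage markers were lower in 9 of 12, with sums over 14 genes of 23183 to 23799 against 14036 to 15008. Their falls were uneven. The median log2 change of the 12 was -0.61, and that of Prg4 was -4.37. Bright genes weigh most in such sums. General macrophage markers were higher in 7 of 14 and lower in 2, with sums over 15 genes of 78009 to 78943 against 84569 to 86394. Neutrophil markers were higher in 3 of 6 (sums of 5818 to 5993 against 7108 to 7456), dendritic cell markers lower in 3 of 6 (7785 to 8024 against 5486 to 5711), and mast cell and eosinophil markers lower in 4 of 5 (3833 to 3977 against 3344 to 3480). T and NK cell markers were higher in 1 of 3, with sums of 992 to 1078 against 1114 to 1188, and the 4 B cell markers tested with limma did not pass, 0 of them at an unadjusted p under 0.05 either, with sums over 7 genes of 1453 to 1517 against 1520 to 1579. The neutrophil, dendritic, mast cell and eosinophil, B cell and T and NK cell counts rest on 3 to 6 tested genes each. The neutrophil marker S100a9 (limma adjusted p = 0.0416) lost its call in 8 of 17 alternatives. The mast cell markers Gata2 (0.0454) and Hdc lost theirs in 9 of 17 and 1 of 18. The other marker calls held in every alternative in which the gene was tested. An array has no true 0, and 27 of 94 markers measured over all 8 lists lay below the filter. Among them were 5 of 11 summed neutrophil, 3 of 9 dendritic and 7 of 12 mast cell and eosinophil markers. So were 5 of 8 T and NK and 3 of 7 B cell markers, and the sums include such dim signal. The part of these cell types in the autophagy genes' values was not tested.

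Of the members, 4 had 2 probe sets, and 3 have pseudogenes named after them. The RefSeq table names 8 pseudogenes after Map1lc3b, 6 after Gabarapl2 and 1 after Atg4a, and the probes may not tell such copies apart. Gabarapl2 read 11.09 to 11.13 against 11.11 to 11.24 on the probe set used, but 6.38 to 6.79 against 6.11 to 6.49 on the other, which lay below the filter. Averaging both turned its change to -0.09. Probe set numbers of the members follow chromosome order. The Gabarapl2 set used is numbered between those of Wipi2 and Ulk1, on chromosome 5, but Gabarapl2 lies on chromosome 8. Its other set is numbered beside that of Map1lc3b, on chromosome 8. The Atg4a set used is numbered between those of Atg13 and Atg4c, on chromosomes 2 and 4, but Atg4a lies on chromosome X. Both sets used may thus read a copy elsewhere, which was not tested. For Atg2b the dimmer probe set read 8.19, 8.44 and 8.45 against 7.95, 8.14 and 8.15 and gave -0.28 ± 0.0863 (adjusted p = 0.0288 in a fit over all probe sets), where the brighter one, at 8.55, 8.45 and 8.62 against 8.28, 8.50 and 8.53, gave -0.10. Both probe sets of Atg2b thus had a negative change, and the dimmer alone passed. The probe sets of Atg4a (0.05 and 0.04) and Map1lc3b (-0.02 and -0.05) gave values close to each other.

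**Figure D5:**
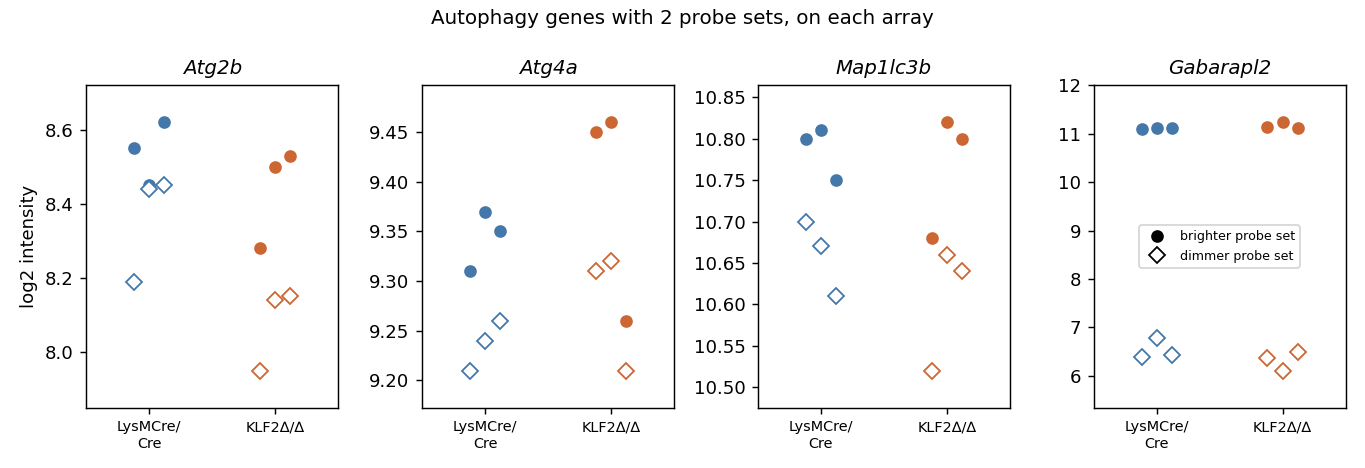
Log2 intensity on each array of both probe sets of the 4 autophagy genes that have 2, filled circles for the brighter and open diamonds for the dimmer, blue for LysMCre/Cre and orange for KLF2∆/∆; each panel has its own scale. The open diamonds of Atg2b are lower in the KLF2∆/∆ arrays, while its filled circles overlap between the groups.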

How the data were processed

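RNA of 6 samples was hybridised to Affymetrix arrays from 150 ng each, per the labels' protocols. The authors deposited log2 intensities per probe set, made with Affymetrix Expression Console and RMA (background correction, quantile normalization, probe summary) per the submitters' processing notes. The other deposited table is linear intensity, judged by its numbers, and repeats them with differences of at most 5.1e-05 in log2. Software versions, filters and the build behind the authors' annotation: not given in the sources used here. RMA makes arrays alike, so a shift of most genes would not show.

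From these values, 6613 of 35557 probe sets were left out and taken as controls. None of them is annotated, and all are numbered below the first probe set of the linear values. In GEO's platform annotation 21789 of the others name 1 gene, 1621 several and 5534 none, and 21698 of the first matched a RefSeq symbol (GRCm38.p6). A gene was read from its brightest single-gene probe set, and genes with a mean below the 40th percentile (log2 7.49) were left out, which kept 12649 of 19938. The group difference was fitted by limma 3.58.1 under R 4.3.3 (intensity trend, no replicate block, two-sided, Benjamini-Hochberg over all tested genes, threshold 0.05). The fit was also run on simulated arrays with independent noise and few changed genes. Those differ from the real arrays, so that run does not check the calls above. The number of arrays limits the precision. Members, lists and tests were chosen with earlier results of these data known. All members are accounted for; from each list up to 4 genes of smallest p in each direction are named. Planned protein comparisons were not made, as no protein sequences were used here. Alternatives covered the replicate block, scaling, weights, variance model, filter, probe sets, threshold and single arrays. Figures were drawn with matplotlib 3.10.9.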

Additional observations from a re-analysis of the deposited data

How the results depend on the processing

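The count of higher members stayed between 5 and 10 (7 as reported) over 18 alternatives. It was 10 after quantile normalization and ran from 5 to 7 without single arrays. The count of lower members (3 as reported) was 1 with arrays centred on their medians, without the intensity trend and at a threshold of 0.01, and 1 to 3 without single arrays; it fell to 1 without each LysMCre/Cre array. Genes called in all ran from 2630, at a threshold of 0.01, to 4114. Klf2 kept its direction and call (0.23 to 0.31). With the replicate block 8 members were higher and 2 lower: Atg14 passed (adjusted p = 0.0335) and Sqstm1 did not (0.0538). No label ties equal replicate numbers to a pair of mice, so they were not taken as pairs. Correlations of their deviations from the group means were -0.091, 0.115 and -0.049. For unequal numbers they ran from -0.109 to 0.182, and such values cannot exclude a pairing. No member past the threshold changed sign in any of these fits.

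Signs turned only in members that did not pass. After quantile normalization these were Becn1 (0.01), Atg2a (0.01) and Atg9a (0.03), with array weights Ambra1 (-0.0048), and with probe sets averaged Gabarapl2 (-0.09). Over fits without single arrays the signs of these ran both ways: Ulk1 (-0.02 to 0.11), Ulk2 (-0.04 to 0.12), Becn1 (-0.05 to 0.01), Ambra1 (-0.03 to 0.04), Atg5 (-0.05 to 0.13), Atg7 (-0.06 to 0.0027), Atg9a (-0.05 to 0.05), Map1lc3b (-0.05 to 0.02), Gabarap (-0.01 to 0.02) and Calcoco1 (-0.03 to 0.08). The causes were not tested. Atg2b by its dimmer probe set, added after the data were seen, passed as given above.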
